A study of Mus musculus with 8 samples.

Results

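The 9 genes described here are Vhl, Hif1a, Epas1, Egln1, Egln2, Egln3, Hif1an, Bnip3 and Vegfa, the core of the oxygen sensing pathway with a pair of its target genes. They were chosen by name, with earlier results of these data known, out of 35944 genes counted, and all 9 were among the 10361 genes with enough counts to be tested. RNA was sequenced from mouse buffy coat, the leukocyte and platelet fraction of blood, in 4 libraries from mice treated with PM2.5 (fine particulate matter from air) and 4 from mice given PBS (phosphate-buffered saline), both over 24 weeks. The libraries keep their label numbers, which are 9, 17, 18 and 21 for PM2.5 and 4, 10, 12 and 16 for PBS. The labels give no strain, genotype, sex, age, dose or route for either group, and they do not state that each library is a separate animal, so errors measure the spread between these libraries.

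In cells with enough oxygen, the prolyl hydroxylases encoded by Egln1, Egln2 and Egln3 modify the HIF-alpha proteins encoded by Hif1a and Epas1. The VHL protein, substrate receptor of a cullin ubiquitin ligase, binds the modified form and marks it for degradation, while the asparaginyl hydroxylase encoded by Hif1an blocks recruitment of coactivators. When oxygen falls these steps slow, and HIF dimers bind a short DNA core in target genes such as Bnip3, a receptor for removal of mitochondria, and Vegfa, a growth factor for blood vessels. Leukocytes use the pathway at sites of inflammation. It acts largely on protein stability, which RNA counts do not measure.

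The core letters bound by HIF dimers, ACGTG or GCGTG, were searched on both strands in the 250 bases before each annotated start (RefSeq, GRCm38.p6). A window was matched for 8 of the 9 genes, Epas1 being the exception. Among 32851 such windows of all genes, 38.6% held at least 1 match, 6.58% at least 3, 2.58% at least 4 and 1.01% at least 5. They are printed for 4 genes to set the gene with the clearest difference between groups, Vhl, beside hydroxylase genes known as HIF targets or not and the target with the most matches. All run 5′ to 3′ on the gene's strand, with matches in capitals, and bases inside the gene span of the GENCODE annotation were trimmed. The Vhl stretch is chr6:113623744-113623958 on the plus strand, the Egln2 stretch is chr7:27166803-27167052, the Egln3 stretch is chr12:54203875-54204124 and the Bnip3 stretch is chr7:138909520-138909756, the last 3 on the minus strand.
Vhl: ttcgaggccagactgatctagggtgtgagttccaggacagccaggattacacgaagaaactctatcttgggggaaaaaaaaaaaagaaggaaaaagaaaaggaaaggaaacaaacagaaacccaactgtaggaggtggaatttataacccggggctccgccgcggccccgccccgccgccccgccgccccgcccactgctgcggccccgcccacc
Egln2: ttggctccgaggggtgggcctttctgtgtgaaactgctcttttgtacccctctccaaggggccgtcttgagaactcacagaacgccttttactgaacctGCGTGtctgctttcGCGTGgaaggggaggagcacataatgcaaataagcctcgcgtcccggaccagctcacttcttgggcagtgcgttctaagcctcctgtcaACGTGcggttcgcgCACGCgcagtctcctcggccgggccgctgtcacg
Egln3: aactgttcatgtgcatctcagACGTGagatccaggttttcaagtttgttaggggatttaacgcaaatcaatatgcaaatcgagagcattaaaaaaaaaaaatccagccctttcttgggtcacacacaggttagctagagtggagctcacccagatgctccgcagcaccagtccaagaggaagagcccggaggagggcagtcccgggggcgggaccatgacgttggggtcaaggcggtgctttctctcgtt
Bnip3: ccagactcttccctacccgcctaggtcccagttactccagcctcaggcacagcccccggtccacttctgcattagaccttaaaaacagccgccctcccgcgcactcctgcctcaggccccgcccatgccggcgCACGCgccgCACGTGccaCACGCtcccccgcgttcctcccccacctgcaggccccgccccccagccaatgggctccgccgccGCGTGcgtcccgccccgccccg
The Vhl stretch had 0 matches, Egln2 had 4, Egln3 had 1 and Bnip3 had 5, of which 1 pair overlaps in the palindrome CACGTG. Of the windows not printed, Hif1a held 3 matches with 1 overlapping pair, Egln1 held 2, Hif1an held 0, and Vegfa held 0 in its first window and 2 in its second. A match is only a run of letters, and 0 matches says nothing of sites elsewhere.

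Libraries held 72081019 to 89032794 expected counts, and haemoglobin genes took 86.7% to 88.6% of them with PM2.5 and 82.4% to 87.9% with PBS. Levels are given as CPM, counts relative to a library size scaled by TMM, a method that assumes most genes are equal between libraries. PM2.5 replicates 17 and 18 had the lowest TMM factors, at 0.644 and 0.638. The factors were 1.1 and 0.991 in PM2.5 replicates 9 and 21 and 0.832 to 1.52 in the PBS libraries. The highest was that of PBS replicate 4, which also had the lowest haemoglobin share, 82.4%. PM2.5 replicates 17 and 18 alone had counts for all 10 neural markers, of which 6 were at 0 in replicates 9 and 21 and 2 to 5 in each PBS library. The summed level of these markers did not set them apart, at 49.7 and 76.4 CPM in replicates 17 and 18. It was 85.2 and 69.1 CPM in replicates 9 and 21, and 37.1 to 67.0 in PBS libraries. With 6 of 10 markers at 0 in replicates 9 and 21, the other markers carried the sum there, so it cannot speak for the rest. Across all genes tested, 48 were higher and 118 lower with PM2.5 (edgeR quasi-likelihood test, adjusted p under 0.05). The 166 calls fell to 8 without PM2.5 replicates 17 and 18 together and were 189 without 9 and 21 together. They fell to 55, 69 and 85 without PM2.5 replicate 17, 18 and 21 in turn, and to 87 and 31 without PBS replicate 4 and 10 in turn. Without PM2.5 replicate 9 they numbered 159, and without PBS replicate 12 and 16 in turn 165 and 192. Every fixed marker of neutrophils, monocytes, B, T and natural killer cells and platelets was counted in at least 1 library. Neutrophil markers were higher with PM2.5, with a summed level of 28.8 to 56.3 CPM in PM2.5 libraries and 14.3 to 27.8 in PBS libraries, and 5 of 8 tested passed that threshold. The B cell markers summed to 38.5 to 49.8 CPM with PM2.5 and 44.7 to 74.3 with PBS. All 10 had log2 fold changes below 0, 3 of them past the threshold, and the median was -0.39.

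Vhl was the 1 gene of the 9 that passed the threshold, with lower levels after PM2.5, beside 1.14% of all genes tested called lower. None was called higher, beside 0.463% of all genes. Because the genes were chosen with this contrast known, these counts and the fold changes of the 9 are a description and carry no p. Also as a description only, unadjusted p was under 0.05 for Vhl, Epas1 and Egln2, beside 18% of all genes, which is no test of the 9 as a set. Of the 9 log2 fold changes (PM2.5 over PBS), 3 lay above 0 and 6 below, with a median of -0.11, beside 0.045 over all genes tested. In bulk RNA, fewer cells of a type and less RNA per cell cannot be told apart.

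**Figure D1:**
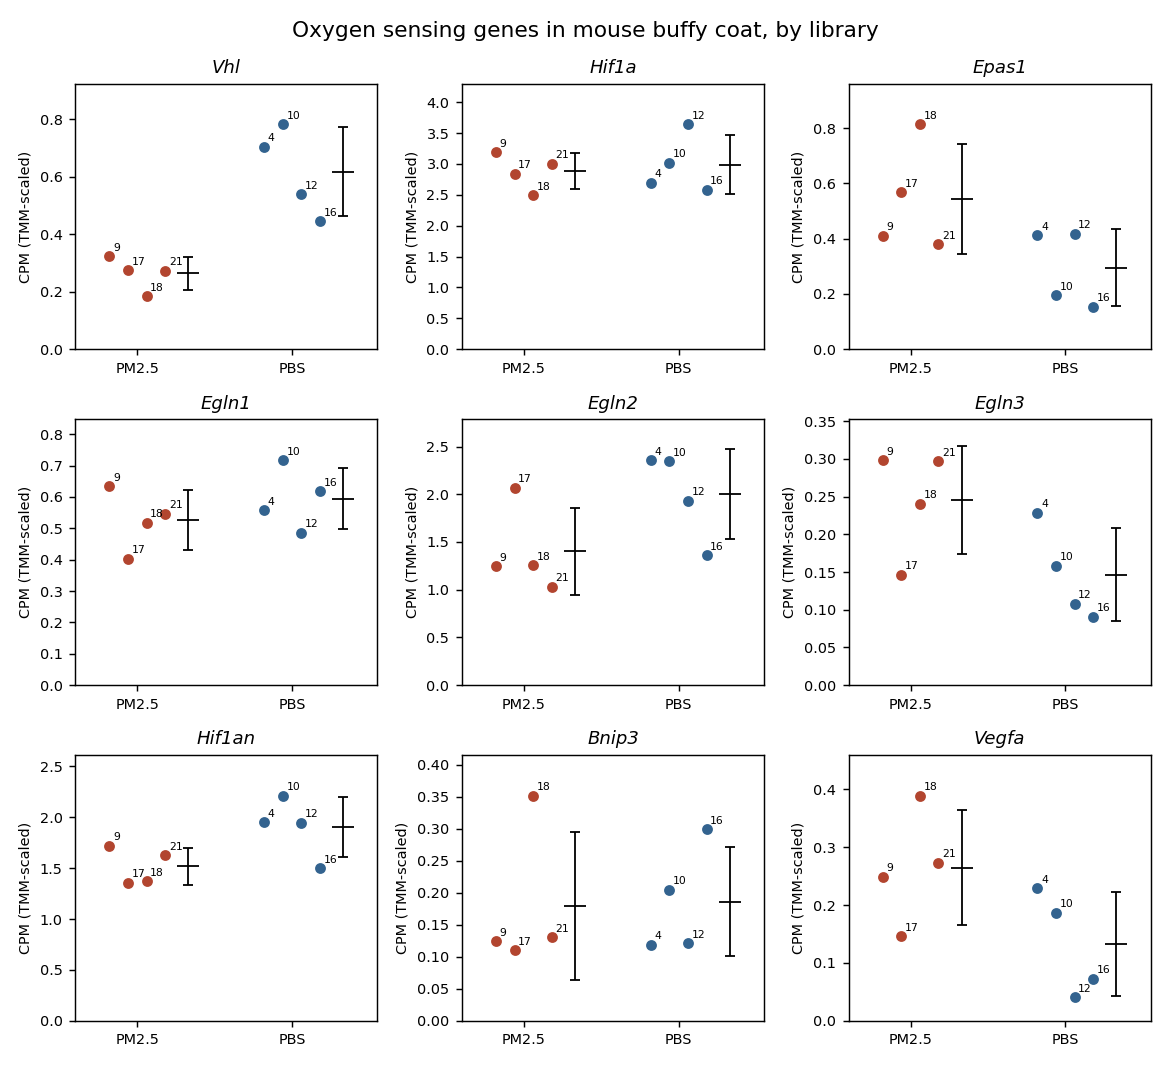
TMM-scaled CPM of each gene (y axis, from 0, own scale per panel) in the 4 PM2.5 libraries, left, and the 4 PBS libraries, right; points are libraries with their replicate numbers and the bar and whiskers are the mean ± SD. Vhl is the gene whose groups do not overlap.

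Vhl (ENSMUSG00000033933.13, chr6:113623959-113631633, plus strand, GRCm38) had 0.324, 0.275, 0.185 and 0.273 CPM in PM2.5 replicates 9, 17, 18 and 21, against 0.704, 0.783, 0.540 and 0.445 CPM in PBS replicates 4, 10, 12 and 16. Every PM2.5 library lay below every PBS library, which held in the lower direction for 6.64% of all genes tested. None of the 9 had every PM2.5 library above every PBS library, beside 3.02% of all genes. The means were 0.264 ± 0.0577 CPM in PM2.5 libraries and 0.618 ± 0.154 CPM in PBS libraries (SD, n = 4 per group), and the log2 fold change was -1.21 (SE 0.285). Vhl was a low gene, at the 28.5th percentile of mean CPM among genes tested, and rested on 26, 15, 10 and 23 counts in the PM2.5 libraries against 77, 84, 40 and 49 in the PBS libraries, 74 and 250 in all. The coefficient of variation was 21.9% among PM2.5 libraries, where counting alone gives 23.7%, and 24.8% among PBS libraries, where counting alone gives 12.8%.

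The direction of Vhl was lower with PM2.5 in every alternative fit in which it was tested, but the call was not as steady. Leaving out a single library ended it in 5 cases, with log2 fold changes of -1.22, -1.08 and -1.22 when 17, 18 and 21 of the PM2.5 libraries were dropped in turn, and -1.17 and -1.10 when 4 and 10 of the PBS libraries were. It was also lost without PM2.5 replicates 17 and 18 together (-1.04) and without 9 and 21 together (-1.44), and with the erythroid level as a covariate (-0.89). The erythroid markers had log2 fold changes above 0 in 11 of 11, with a median of 0.53 and none past the threshold. The parts of the B cell, neutrophil and erythroid markers in the Vhl difference were not tested beyond that covariate.

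Nearly all Vhl counts were assigned to a single transcript. Vhl-201, the protein-coding form of 2792 bases in 3 exons, held every count of the gene in 6 libraries. The exceptions were PM2.5 replicate 21, where 2.57 estimated counts (11.2%) went to Vhl-202, and PBS replicate 4, where 4.31 (5.6%) did. Vhl-203 and Vhl-204 were at 0 throughout. The deposited FPKM, which is scaled to all fragments and per length, averaged 0.117 ± 0.0727 in PM2.5 libraries and 0.362 ± 0.197 in PBS libraries (SD, n = 4 per group). On that scale the groups overlapped, since PM2.5 replicate 21 had 0.21 and PBS replicate 12 had 0.18. In that PM2.5 library 0.11 of the 0.21 FPKM came from Vhl-202. Vhl-201 alone had 0.05 to 0.14 FPKM in PM2.5 libraries and 0.18 to 0.43 in PBS libraries, and the groups did not overlap. In FPKM summed per gene, that held in the lower direction for 7.06% of all genes tested and in the higher direction for 0.0869%.

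Hif1a and Epas1 encode the HIF-alpha subunits and differed from each other in pattern. Hif1a, the form found across most cell types (chr12:73901375-73947530, plus strand), had 3.19, 2.84, 2.498 and 3.005 CPM in PM2.5 replicates 9, 17, 18 and 21, against 2.70, 3.02, 3.65 and 2.58 CPM in PBS replicates 4, 10, 12 and 16. The groups overlapped, with means of 2.88 ± 0.293 CPM in PM2.5 libraries and 2.99 ± 0.477 in PBS libraries (SD, n = 4 per group) and a log2 fold change of -0.04 (SE 0.158), whose sign turned without PM2.5 replicate 18 (0.02) or PBS replicate 12 (0.06). With 135 to 256 counts in PM2.5 libraries and 270 to 324 in PBS libraries, Hif1a had the smallest SE of the 9 genes. Its transcript Hif1a-201 held 53.8% to 82.4% of its counts. The annotated antisense gene Gm15283 spans Hif1a, and the sources used here do not say whether counting used strand, so its reads may be included.

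Epas1 (chr17:86753700-86833410, plus strand) encodes the alpha subunit best known from endothelium and from erythropoietin-producing cells. It had 0.411, 0.568, 0.814 and 0.380 CPM in PM2.5 replicates 9, 17, 18 and 21, against 0.412, 0.196, 0.418 and 0.154 CPM in PBS replicates 4, 10, 12 and 16. Only PM2.5 replicates 17 and 18 lay above every PBS library. The log2 fold change was 0.87 (SE 0.360) over 8 libraries, 0.44 without PM2.5 replicates 17 and 18 and 1.22 without 9 and 21. It was also 0.37 with the erythroid covariate. Endothelial markers summed to 128.4 to 187.0 CPM with PM2.5 and 104.8 to 197.8 with PBS, overlapping ranges, and their part was not tested. Only 4 of the 8 endothelial markers had enough counts to be tested. Kdr, 1 of them, averaged 0.265 CPM with PM2.5 and 0.260 with PBS, so nearly all of the sum came from other markers. On the FPKM scale Epas1 averaged 0.0825 ± 0.0150 in PM2.5 libraries and 0.140 ± 0.0783 in PBS libraries (SD, n = 4 per group), the other direction from CPM. That turn rests on 0.66 and 0.47 estimated counts of the 332-base Epas1 transcript in PBS replicates 10 and 12, listed at 0.17 and 0.11 FPKM. The main Epas1 transcript alone averaged 0.0825 ± 0.0150 FPKM in PM2.5 libraries and 0.0700 ± 0.0356 in PBS libraries, with overlapping groups.

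The prolyl hydroxylase genes differed in the sign of their fold changes. Egln2 (chr7:27158658-27166802, minus strand), of which the protein is found mostly in the nucleus, had 1.25, 2.07, 1.26 and 1.03 CPM in PM2.5 replicates 9, 17, 18 and 21, against 2.36, 2.35, 1.93 and 1.36 CPM in PBS replicates 4, 10, 12 and 16. PM2.5 replicates 9, 18 and 21 lay below every PBS library and replicate 17 did not. Its log2 fold change was -0.53 (SE 0.225), or -0.80 without PM2.5 replicates 17 and 18 and -0.29 without 9 and 21. In FPKM the Egln2 groups did not overlap, at 0.705 ± 0.183 in PM2.5 libraries and 1.92 ± 0.722 in PBS libraries (SD, n = 4 per group), as held in the lower direction for 7.06% of all genes tested and in the higher direction for 0.0869%. The main Egln2 transcript, protein coding with 2107 bases, alone had 0.44 to 0.75 FPKM in PM2.5 libraries and 0.85 to 1.88 in PBS libraries. The 3′ end of Egln2 touches Cyp2t4, which had 0 counts.

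Egln3 (chr12:54178981-54203860, minus strand), itself a known HIF target, had a fold change of the other sign. It had 0.299, 0.147, 0.241 and 0.297 CPM in PM2.5 replicates 9, 17, 18 and 21, against 0.229, 0.159, 0.108 and 0.0909 CPM in PBS replicates 4, 10, 12 and 16. PM2.5 replicates 9, 18 and 21 lay above every PBS library, and replicate 17 lay within the PBS range. These values rest on 8 to 25 counts per library in both groups, and the log2 fold change of 0.75 had an SE of 0.414. It was 0.37 without PM2.5 replicates 9 and 21 and 1.30 with the erythroid covariate. Egln1 (chr8:124908587-124949324, minus strand), the main hydroxylase of HIF-alpha in most tissues, had 0.526 ± 0.0956 CPM in PM2.5 libraries and 0.595 ± 0.0982 in PBS libraries (SD, n = 4 per group), with overlapping groups and a log2 fold change of -0.17 (SE 0.240).

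Within each library the mix of the 3 hydroxylase genes can be compared as shares of their summed FPKM, which does not depend on how libraries are scaled. Egln2 took 76.0% ± 6.71 in PM2.5 libraries and 85.9% ± 3.01 in PBS libraries (SD, n = 4 per group). Its shares were 70.8%, 85.9%, 73.3% and 74.1% in PM2.5 replicates 9, 17, 18 and 21, against 86.6%, 86.1%, 89.0% and 81.8% in PBS replicates 4, 10, 12 and 16. PM2.5 replicate 17 fell among the PBS libraries and the other 3 below them. Egln3 took 9.37% ± 3.19 in PM2.5 libraries and 3.50% ± 0.954 in PBS libraries, where again PM2.5 replicate 17, at 4.71%, was the library within the PBS range of 2.76% to 4.90%. Egln1 took 14.6% ± 3.64 in PM2.5 libraries and 10.6% ± 3.16 in PBS libraries. With that main transcript as the only one of Egln2, Egln2 took 73.4% ± 8.83 in PM2.5 libraries and 80.7% ± 3.30 in PBS libraries, and PM2.5 replicate 17, at 85.9%, lay above every PBS library. Egln3 then took 10.5% ± 4.26 in PM2.5 libraries and 4.79% ± 1.20 in PBS libraries, with PM2.5 replicate 17 again within the PBS range. The summed FPKM was 0.932 ± 0.265 in PM2.5 libraries and 2.23 ± 0.825 in PBS libraries. Unlike the shares, this sum depends on how libraries are scaled, and FPKM was lower with PM2.5 for most genes. Of genes with at least 1 FPKM in 4 libraries, 8.23% had a log2 fold change above 0 on log2(FPKM + 1).

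**Figure D2:**
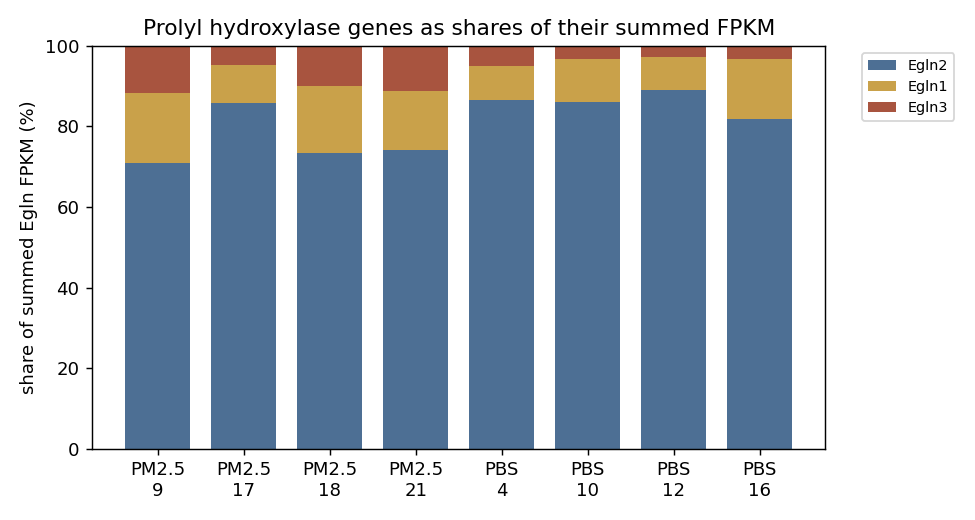
Egln1, Egln2 and Egln3 as stacked percent of their summed FPKM (y axis) in each library (x axis), PM2.5 libraries left and PBS libraries right. Egln2 is the largest share in all 8 libraries, and PM2.5 replicate 17 lies within the PBS range.

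Hif1an (chr19:44562850-44576274, plus strand), the asparaginyl hydroxylase gene, had 1.72, 1.36, 1.37 and 1.63 CPM in PM2.5 replicates 9, 17, 18 and 21, against 1.95, 2.21, 1.94 and 1.499 CPM in PBS replicates 4, 10, 12 and 16. PM2.5 replicates 17 and 18 lay below every PBS library, replicates 9 and 21 above PBS replicate 16. The log2 fold change was -0.32 (SE 0.173). In FPKM summed over transcripts the groups did not overlap, at 0.260 ± 0.0779 in PM2.5 libraries and 0.507 ± 0.198 in PBS libraries (SD, n = 4 per group), beside the same 7.06% of all genes. The main transcript Hif1an-201 alone did overlap, at 0.14 to 0.32 FPKM in PM2.5 libraries and 0.27 to 0.50 in PBS libraries, so the gap depends on the few counts of the retained-intron form Hif1an-202.

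Bnip3 and Vegfa stand for the output of the pathway, and both rested on few counts. Bnip3 (chr7:138890836-138909519, minus strand) had 0.124, 0.110, 0.352 and 0.131 CPM in PM2.5 replicates 9, 17, 18 and 21, against 0.119, 0.205, 0.121 and 0.300 CPM in PBS replicates 4, 10, 12 and 16. The groups overlapped throughout, 6 to 19 counts per PM2.5 library and 9 to 33 per PBS library lay behind them, and the log2 fold change of -0.11 had an SE of 0.473. Its antisense neighbour Gm45507 overlaps its exons, so its counts may not all be Bnip3.

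Vegfa (chr17:46016993-46032369, minus strand) had 0.249, 0.147, 0.389 and 0.273 CPM in PM2.5 replicates 9, 17, 18 and 21, against 0.229, 0.187, 0.0405 and 0.0727 CPM in PBS replicates 4, 10, 12 and 16. PM2.5 replicates 9, 18 and 21 lay above every PBS library and replicate 17 lay between PBS libraries. The log2 fold change of 0.96 had an SE of 0.486, and PBS replicate 12 held 3 counts. It was 1.66 with the erythroid covariate. Much of the Vegfa FPKM came from the short transcript Vegfa-203 (513 bases), as in PM2.5 replicate 21, where it gave 0.54 of 0.59 FPKM.

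**Figure D3:**
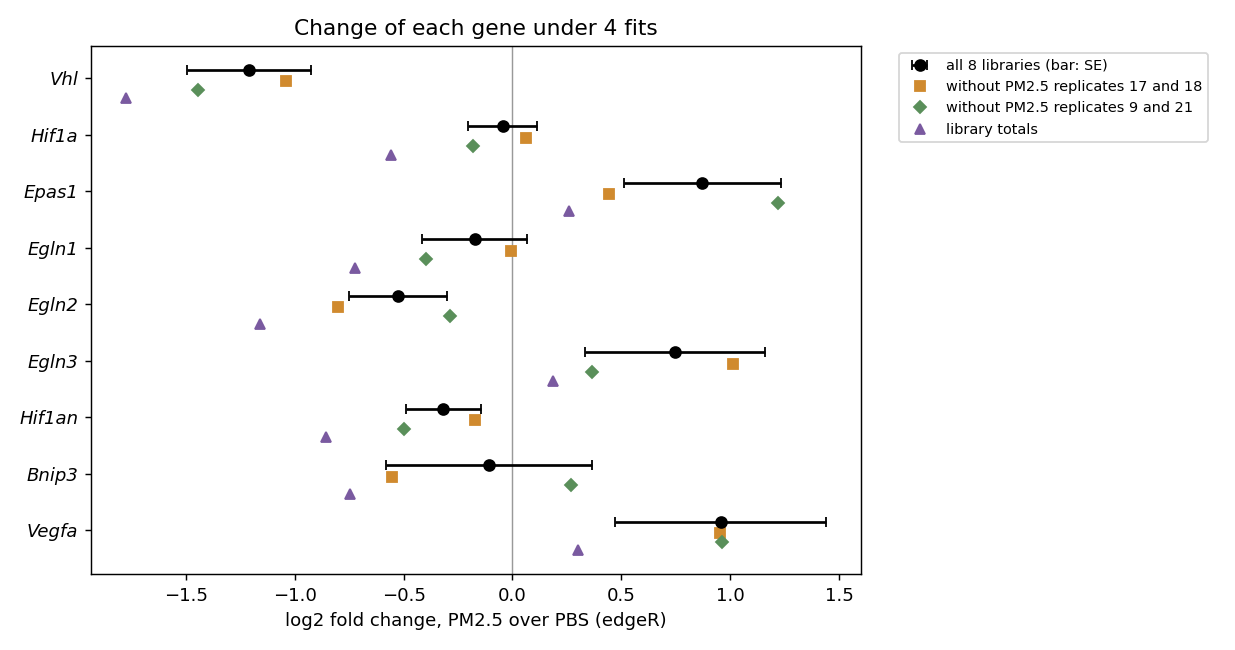
log2 fold change (PM2.5 over PBS, x axis) of each gene: black circles are all 8 libraries with SE bars, squares leave out PM2.5 replicates 17 and 18, diamonds leave out 9 and 21, and triangles use library totals without TMM. Vhl lies left of 0 in all 4 fits, while Hif1a and Bnip3 lie on both sides.

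Scaling shifts all the genes together. With library totals in place of TMM the median of all genes moved to -0.52, and Vhl was -1.77, Egln2 -1.16, Epas1 0.26, Egln3 0.19 and Vegfa 0.30. Relative to the median of all genes, Vhl was -1.25 by TMM and -1.25 by library totals, Egln2 -0.57 and -0.64, Epas1 0.83 and 0.78, Egln3 0.70 and 0.71, and Vegfa 0.91 and 0.82. Under library totals Egln2 passed the threshold as well as Vhl.

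By level per length over all 8 libraries, Egln2 came first with 1.31 ± 0.810 FPKM and Hif1a second with 1.22 ± 0.557 (SD, n = 8). Hif1an followed at 0.384 ± 0.192, then Vegfa at 0.245 ± 0.196, Vhl at 0.240 ± 0.190, Egln1 at 0.184 ± 0.0807, Bnip3 at 0.169 ± 0.112, Epas1 at 0.111 ± 0.0606 and Egln3 at 0.0863 ± 0.0453 FPKM. Hif1a was above Hif1an in 8 of 8 libraries. Egln2 was above Hif1a in 5 of 8, which were 1 PM2.5 and 4 PBS libraries, and every later pair of neighbours was in its order in 3 to 6 of 8 libraries. The order was not the same in both groups. Vegfa was above Vhl in 3 of 4 PM2.5 libraries and 0 of 4 PBS libraries, and Hif1an was above Vegfa in 2 of 4 PM2.5 libraries and 4 of 4 PBS libraries. The place of Vegfa leans on Vegfa-203, which gave 0.08, 0.32 and 0.54 FPKM in PM2.5 replicates 9, 18 and 21. Behind these lay 1.29, 5.92 and 10.04 estimated counts. By mean CPM, not scaled per length, Hif1a ranked 1, Hif1an 2, Egln2 3, Vhl 5 and Vegfa 7. The other later neighbours held their order in 1 to 3 of 4 libraries of each group.

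The genes whose profile over the 8 libraries was most like that of Vhl were found by the root mean square difference of centred log2 CPM, with no p, since Vhl was chosen for its pattern. They were Ero1lb (0.129), Rras2 (0.136), Txndc16 (0.182), Bach2 (0.183), Uspl1 (0.183) and Zfp628 (0.192), beside a median of 0.732 over 9854 genes compared. Their log2 fold changes ran from -0.87 in Zfp628 to -1.15 in Ero1lb, and none of the 6 had overlapping groups. Both traits largely follow from picking genes for their likeness to Vhl over the same libraries. Ero1lb encodes an oxidase of the endoplasmic reticulum and Bach2 a transcription factor of B cells. Bach2 had 3.999 ± 0.522 CPM in PM2.5 libraries and 8.28 ± 1.52 in PBS libraries (SD, n = 4 per group), and Ero1lb had 2.11 ± 0.409 in PM2.5 libraries and 4.71 ± 0.907 in PBS libraries. The genes nearest Hif1a were Etv6 and Cyb5b, nearest Epas1 Melk and Ccdc141, nearest Egln1 Sumo2 and Phf2, nearest Egln2 Zfp810 and Baiap2, nearest Egln3 F13a1 and Ninj1, nearest Hif1an Rif1 and Hnrnpa3, nearest Bnip3 Ptrh2 and Nkrf, and nearest Vegfa Phlda3 and Ndrg2. The 2 nearest Vegfa were 0.375 away and the 2 nearest Hif1an 0.054 and 0.074. F13a1, near Egln3, is 1 of the 10 monocyte markers, with means of 33.6 CPM in PM2.5 libraries and 22.4 in PBS libraries. With F13a1 included, the monocyte markers summed to 68.6 to 119 CPM in PM2.5 libraries and 55.01 to 93.7 in PBS libraries. Of the 10 monocyte markers 8 had log2 fold changes above 0 and 3 passed the threshold, with a median of 0.57, and their part in the Egln3 values was not tested.

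Of the 22 genes of the VHL ligase and the regulators of the hydroxylases, all 22 were tested and none passed (edgeR quasi-likelihood test, beside 1.6% of all genes). An unadjusted p under 0.05 was found for 1, beside 18% of all genes. DESeq2 called none of this list nor of the HIF partner, glycolysis and VEGF lists that follow. Limma called 0 of all 3658 genes it tested, so its lack of calls says nothing particular to these lists. It tested 0 genes of the VEGF list. Of the 22 genes of the first list 12 lay above 0, beside 54.4% of all genes, with a median log2 fold change of 0.088. Ube2m, an enzyme that activates cullins by attaching Nedd8, was 0.55 (SE 0.218, adjusted p = 0.211) and Usp8, a deubiquitinase, 0.32 (SE 0.169, adjusted p = 0.328). Relative to the median of all genes, Ube2m was 0.50 by TMM and 0.49 by library totals, and Usp8 0.27 and 0.24. Among 18 tested of 20 HIF partners and coactivators none passed, with a median of 0.035. Their unadjusted p was under 0.05 for 1, beside 18% of all genes. Arnt, the shared beta subunit of HIF dimers, had 1.67 ± 0.120 CPM in PM2.5 libraries and 2.168 ± 0.386 in PBS libraries (SD, n = 4 per group), giving a log2 fold change of -0.38 with SE 0.171 and adjusted p = 0.253. Kat5, an acetyltransferase coactivator, was -0.63 (SE 0.341, adjusted p = 0.335).

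The glycolysis genes that HIF is known to drive were measured in full, 19 of 19, and none passed. Among them 3 had an unadjusted p under 0.05, beside 18% of all genes. Under TMM 17 of 19 log2 fold changes lay above 0, beside 54.4% of all genes, with a median of 0.21; under library totals 2 of 19 did, with a median of -0.35, beside 6.89% of all genes. Relative to the median of all genes, 16 of 19 lay above it by TMM and 16 of 19 by library totals. Under TMM the platelet markers had 8 of 8 log2 fold changes above 0, with a median of 0.33 and 0 past the threshold. Their sums were 549.5 to 909 CPM in PM2.5 libraries and 456.6 to 822.1 in PBS libraries, and their part in the glycolysis values was not tested. Hk2, the inducible hexokinase, had 0.723 ± 0.302 CPM in PM2.5 libraries and 0.394 ± 0.133 in PBS libraries (SD, n = 4 per group), giving a log2 fold change of 0.90 with SE 0.329 and adjusted p = 0.173. Pfkp, the platelet form of phosphofructokinase, was -0.47 (SE 0.170, adjusted p = 0.168), with every PM2.5 library below every PBS library.

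Of the 45 other HIF targets, 26 were tested and 1 was higher, beside 0.463% of all genes, and 0 lower, beside 1.14%, with a median of -0.086. Nfil3, a transcription factor needed for natural killer cell development (chr13:52967209-52981073), had 2.30, 2.13, 2.18 and 2.66 CPM in PM2.5 replicates 9, 17, 18 and 21, against 1.21, 1.26, 0.837 and 1.25 CPM in PBS replicates 4, 10, 12 and 16. The groups did not overlap, and the log2 fold change was 1.02 (SE 0.175, edgeR quasi-likelihood adjusted p = 0.00999). The call held without any 1 library, and was lost without PM2.5 replicates 17 and 18 (1.12, adjusted p = 0.0617), without 9 and 21 (0.89, adjusted p = 0.0542), with the erythroid covariate (1.26, adjusted p = 0.087), under library totals (0.44, adjusted p = 0.407) and with haemoglobin removed before totals (0.67, adjusted p = 0.183). Cxcr4, a chemokine receptor named after its values were seen, was not called in the fit reported here (log2 fold change -0.63, SE 0.190, adjusted p = 0.105). It was called lower by DESeq2, with no filter, under library totals and with haemoglobin removed, while Nfil3 was not called in the last pair. Natural killer cell markers summed to 4.85 to 9.84 CPM with PM2.5 and 3.59 to 5.10 with PBS, with 1 of 7 tested past the threshold. Past it as well were 5 of 8 neutrophil markers (higher), 3 of 10 monocyte markers and 3 of 10 B cell markers (lower). The part of any of these cell types in the Nfil3 values was not tested. Epo, Cox4i2, Tmem45a and Edn1 had 0 counts in every library.

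Of 9 VEGF ligands and receptors other than Vegfa, 4 were tested and 0 passed. All 4 lay above 0, beside 54.4% of all genes, with a median of 0.31. Under library totals 2 of 4 did, beside 6.89% of all genes. Relative to the median of all genes, 2 of 4 lay above it by TMM and 2 of 4 by library totals. Nrp2, a coreceptor of VEGF, had 0.371 ± 0.0304 CPM in PM2.5 libraries and 0.192 ± 0.0374 in PBS libraries (SD, n = 4 per group), giving a log2 fold change of 0.95 with SE 0.323 and adjusted p = 0.148. Nrp1 was 0.60 (SE 0.332, adjusted p = 0.342), and Pgf had 0 counts. Other enzymes that use 2-oxoglutarate and oxygen as the hydroxylases do were tested in 33 of 44 cases, none passed and the median was -0.14. Among them 5 had an unadjusted p under 0.05, beside 18% of all genes. Jmjd1c, a histone demethylase family protein, had 3.99 ± 0.458 CPM in PM2.5 libraries and 5.69 ± 0.707 in PBS libraries (SD, n = 4 per group), giving a log2 fold change of -0.51 with SE 0.154 and adjusted p = 0.105. Kdm5a, a demethylase whose activity is known to depend on oxygen, was -0.52 (SE 0.161, adjusted p = 0.113). DESeq2 called both lower, and edgeR with library totals did as well.

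**Figure D4:**
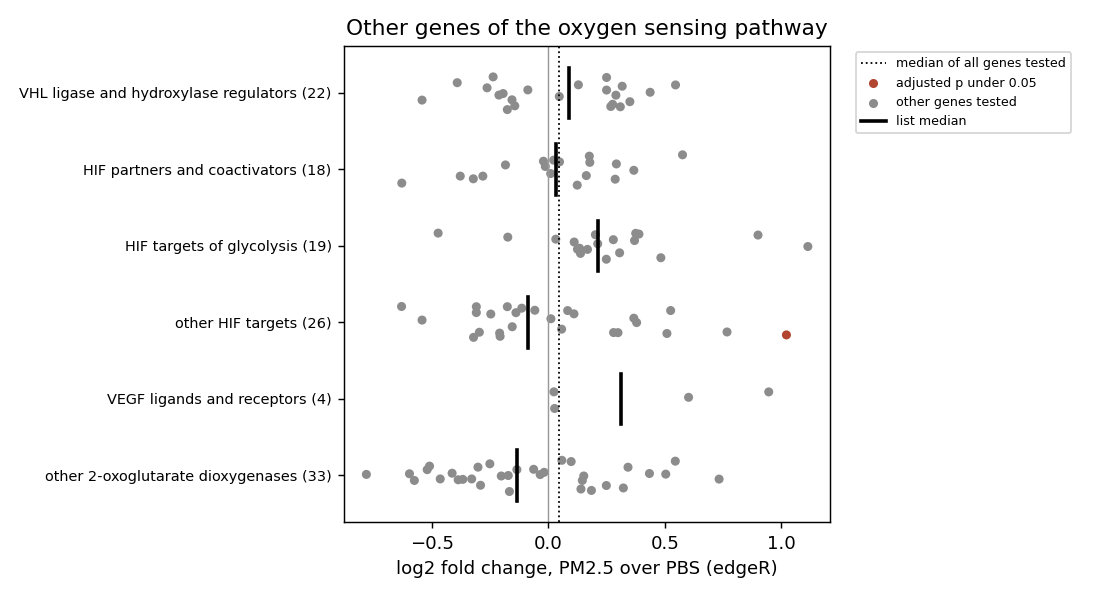
log2 fold change (PM2.5 over PBS, x axis) of each tested gene of the 6 gene lists, 1 row per list with the number tested in brackets; thick bars are list medians and the dotted line is the median of all genes tested. Nfil3, at 1.02 and in red, is the gene past adjusted p 0.05.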

How the data were processed

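The authors deposited 1 table of 118783 Ensembl transcripts with expected counts (estimated counts, not normalized; 24.5% of values not whole) and FPKM per library. The deposited FPKM values are scaled by transcript length and library fragments, per the file headers. Libraries were strand-marked, per the labels' protocols. The tools named are HISAT2 2.0.1, cutadapt 1.9.1 and bcl2fastq 2.17.1.14, with build GRCm38, per the submitters' processing notes. Neither the counting tool nor its strand setting is given in the sources used here.

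Here 116710 transcripts matched GENCODE M21 identifiers, giving 35944 genes after summing. The 2073 without a match held 0.0266% to 0.0532% of counts. Rounded sums entered edgeR 4.0.16 (R 4.3.3), with the two-sided quasi-likelihood test (genes kept by filterByExpr, minimum count 10 and total 15, TMM over kept genes, group as the only term, Benjamini-Hochberg over 10361 genes, threshold 0.05). The SE is the log2 fold change over the square root of F, an approximation. The procedure was tested on simulated data. Alternatives were DESeq2 1.42.0, limma 3.58.1 on log2(FPKM + 1) and log2(FPKM + 0.1) for genes of at least 1 FPKM in 4 libraries, other scalings and filters, an erythroid covariate and libraries left out. Every pair of libraries differed by more than sampling noise. Counting error alone does not cover differences between animals.

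The members and lists were chosen with earlier results of these data known. Named list genes are those past the threshold, up to 6 by smallest p, or otherwise the 2 with the smallest p, and the nearest profiles skip predicted genes, pseudogenes and antigen receptor segments.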

Additional observations from a re-analysis of the deposited data

Results flagged for a closer look

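Bnip3 in PM2.5 replicate 18 had 0.352 CPM, far from the other 3 PM2.5 libraries, at 0.110 to 0.131 CPM. The gap was 0.914 of the group's range, above Dixon's 95% critical value for 4 samples. It rests on 19 counts. Chance alone gives such a gap in about 1 in 20 groups, and 18 groups were looked at. Without that library the log2 fold change of Bnip3 was -0.61, against -0.11 with all 8.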

How the results depend on the processing

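No paired analysis was possible because the PM2.5 and PBS libraries share no replicate number. The number of genes called, 166, became 483 with library totals, 624 with no filter, 373 with DESeq2, 8 without PM2.5 replicates 17 and 18, 0 with the erythroid covariate and 0 with limma at either pseudocount, and ran from 31 to 192 with 1 library left out. Without PM2.5 replicates 9 and 21 it was 189. The calls among the 9 oxygen sensing genes, 1, became 2 with library totals and 0 with a mean of at least 50 counts (Vhl was then not tested), with the erythroid covariate, without PM2.5 replicates 17 and 18, without 9 and 21, and with limma (Vhl was under its filter), and ran from 0 to 1 with 1 library left out. The log2 fold change of Vhl lost its call at -0.89 (erythroid covariate), -1.04 (without 17 and 18) and -1.44 (without 9 and 21), ran from -1.35 to -1.08 with 1 library left out, and kept its call in 8 alternatives, at -1.77 to -1.20. Other HIF targets called, 1, became 2 with no filter and with DESeq2, and 0 with the erythroid covariate, without 17 and 18, without 9 and 21 and with limma. It stayed at 1 with library totals and with haemoglobin removed, where the gene was Cxcr4 and not Nfil3. Other 2-oxoglutarate dioxygenases called, 0, became 2 with library totals and with DESeq2 and 1 with haemoglobin removed, and ran from 0 to 1 with 1 library left out.

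Signs turned for Hif1a (0.02 without PM2.5 replicate 18, 0.064 without PBS replicate 12, 0.063 without PM2.5 replicates 17 and 18; -0.128 to 0.064 with 1 library left out), Egln1 (0.14 with the erythroid covariate), Bnip3 (0.05 without PM2.5 replicate 17, 0.03 without 21, 0.207 without PBS replicate 16, 0.267 without PM2.5 replicates 9 and 21; -0.613 to 0.207 with 1 library left out), Ube2m (-0.031 with library totals, -0.008 and -0.009 with limma) and Usp8 (-0.28 with library totals, -0.04 with haemoglobin removed). The flips of Ube2m and Usp8 follow the shift of all genes under those scalings, as both stayed above the median of all genes. Limma tested fewer genes by construction, and the causes of the other changes were not tested. Low counts limit Bnip3, Egln3, Vegfa and Vhl.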
